A study of Homo sapiens with 9 samples.

Results

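The major histocompatibility complex (MHC) on the short arm of chromosome 6 was described here through the CUT&Tag peaks that fall in it. Members were all rows of the 3 deposited peak lists whose summit lay on hg19 chromosome 6 from 29 Mb up to 33.5 Mb, together with every row on one of the 7 alternative haplotype contigs of chromosome 6. These were 855 of 27108 rows (3.15%), 102 of them on chromosome 6 and 753 on the contigs. The choice used position alone and no measured value. Of 7027 HA-BAZ2B peaks, 26 lay in the region and 198 on the contigs. Of 2451 WT peaks, 1 lay in the region and 22 on the contigs. Of 17630 H3K4me3 peaks, 75 lay in the region and 533 on the contigs.

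All libraries came from A549, a human lung adenocarcinoma line. The first group, HA-BAZ2B, was A549 cells with an HA epitope tag on the endogenous BAZ2B protein, profiled with an anti-HA antibody. The second was untagged wild-type (WT) A549 cells profiled with the same antibody, which gives the background of the assay without its target. The third was the HA-BAZ2B cells profiled with an antibody against H3K4me3. Each group had 3 replicates, and 1 list per group was deposited, so no value per replicate stands behind any number below. The sources used here do not say whether the tagged line is 1 clone. The protocols also describe an siRNA transfection, and no library is assigned to it.

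The MHC holds the class I genes, whose products present peptides from inside the cell on nearly all nucleated cells, and the class II genes, which serve mainly antigen-presenting cells. The class III genes lie between them and encode complement proteins, cytokines and many proteins with housekeeping roles. The region varies so much between people that the hg19 build carries other versions of it as separate contigs, named apd, cox, dbb, mann, mcf, qbl and ssto. A read that matches several copies equally well does not show which copy it came from. The sources used here do not state how such reads were treated. The contigs are copies of the same place and were never added to the counts of chromosome 6. BAZ2B is a bromodomain protein of ISWI-type chromatin remodelers, H3K4me3 marks active promoters, and CUT&Tag cuts and tags DNA around a bound antibody in permeabilised cells.

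The peaks carry no gene names, and hg19 transcript starts were at hand for 2 genes of the region, each with copies on 5 contigs. DXO encodes a decapping enzyme and exonuclease that removes RNAs with faulty caps, and OR12D2 encodes an olfactory receptor. The start of DXO (chromosome 6, 31940032, minus strand) and that of OR12D2 (29364416, plus strand) both lay inside the region. In the RefSeq order DXO stands between SKIC2 and WHR1, and OR12D2 between OR12D3 and OR11A1. Their promoters are printed because one start carried an H3K4me3 peak on every copy examined and the other carried no peak on any. The sequences are RefSeq's on GRCh38.p14, from 250 bases before to 50 after the gene's start, 5′ to 3′ on the gene's strand, with runs of 3 or more G or C in capitals. Whether those starts match the hg19 starts base for base was not examined.

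DXO promoter, GRCh38.p14 chr6:31972089-31972388, minus strand: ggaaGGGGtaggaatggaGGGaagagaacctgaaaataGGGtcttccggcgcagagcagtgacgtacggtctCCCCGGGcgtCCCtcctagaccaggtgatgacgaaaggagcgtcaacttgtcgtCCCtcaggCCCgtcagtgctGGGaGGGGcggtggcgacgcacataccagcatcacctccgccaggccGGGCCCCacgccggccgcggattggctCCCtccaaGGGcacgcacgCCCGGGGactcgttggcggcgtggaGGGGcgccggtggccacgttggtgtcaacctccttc
OR12D2 promoter, GRCh38.p14 chr6:29395381-29395680, plus strand: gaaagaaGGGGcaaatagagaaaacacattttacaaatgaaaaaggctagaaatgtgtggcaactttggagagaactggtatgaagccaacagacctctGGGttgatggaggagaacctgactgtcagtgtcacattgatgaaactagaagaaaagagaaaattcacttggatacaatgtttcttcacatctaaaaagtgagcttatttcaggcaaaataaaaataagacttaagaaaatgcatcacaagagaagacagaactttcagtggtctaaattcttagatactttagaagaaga

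Runs of G matter to this series because its title concerns G-quadruplex DNA, a 4-stranded fold built from such runs. The DXO promoter held 17 runs of GGG or CCC and 67% G or C, and the OR12D2 promoter held 2 runs and 35.7%. The median of the 35116 RefSeq promoters was 13 runs and 58.7%. As many runs as in DXO, or fewer, were found in 73.05% of promoters, and as many as in OR12D2, or fewer, in 4.45%. Neither promoter held 4 runs of GGG, or of CCC for the other strand, separated by 1 to 7 bases each, a pattern found in 24.9% of all promoters. Matches may overlap other runs, and the pattern describes letters only.

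At the DXO start on chromosome 6 there was no HA-BAZ2B peak, no WT peak and an H3K4me3 peak of 1458 bp (31939357 to 31940814). The fold enrichment of a peak is the authors' deposited ratio over the background that their peak caller estimated, and it was 8.34 here. The −log10 q, the caller's significance, was 28.4. The nearest HA-BAZ2B summit was 109.4 kb away. HA-BAZ2B peaks were listed at this start on 0 of 6 copies, WT peaks on 1 and H3K4me3 peaks on 6, with H3K4me3 fold enrichment between 7.83 and 9.13. The 1 WT peak was on qbl, was 299 bp wide and had a fold enrichment of 4.81. At the OR12D2 start no list had a peak on any of 6 copies. The nearest H3K4me3 summit to it lay 231.9 to 253.3 kb away, depending on the copy.

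Along the region, HA-BAZ2B peaks formed separate groups and long stretches had none. The peaks of each list were counted in 9 windows of 0.5 Mb. The window from 31.5 to 32 Mb held 8 HA-BAZ2B peaks, 1 WT peak and 17 H3K4me3 peaks. The window from 33 to 33.5 Mb held 8 HA-BAZ2B and 15 H3K4me3 peaks, and that from 30.5 to 31 Mb held 6 and 15. The windows that began at 29, 29.5, 31 and 32.5 Mb held no HA-BAZ2B peak, and the last of these held 7 H3K4me3 peaks. The first 0.5 Mb, where OR12D2 lies, held no peak of any list. Within the region the longest distance between neighbouring H3K4me3 summits was 642.7 kb, between peaks that ended at 32164298 and began at 32805752. The median distance was 22.1 kb. The start of the region cuts another empty stretch, 600.8 kb before its first H3K4me3 summit, and the H3K4me3 summit before that lay at 28.9 Mb. No HA-BAZ2B peak lay between 32164153 and 33167941.

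**Figure D1:**
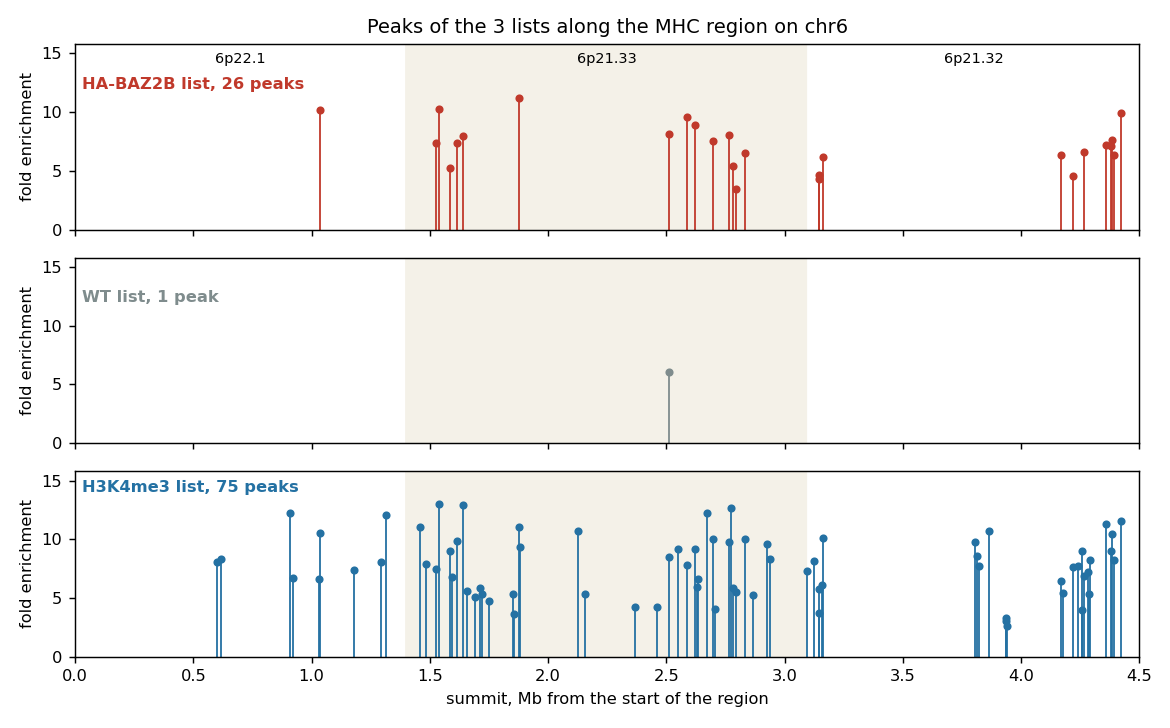
Fold enrichment (vertical, as deposited, not scaled between lists) of every peak on the chromosome 6 copy against the distance of its summit from the start of the region in Mb. Each stem is 1 peak, with HA-BAZ2B above, WT in the middle and H3K4me3 below, and shading separates the cytogenetic bands. The 26 HA-BAZ2B peaks stand in groups, the single WT peak stands in 6p21.33, and the longest empty stretch of the H3K4me3 list spans 642.7 kb.

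By cytogenetic band, 6p22.1 held 1 HA-BAZ2B peak and 9 H3K4me3 peaks within the region. Band 6p21.33 held 14 HA-BAZ2B peaks, 1 WT peak and 39 H3K4me3 peaks, and 6p21.32 held 11 HA-BAZ2B peaks and 27 H3K4me3 peaks. HA-BAZ2B peaks overlapped 11.1% of the H3K4me3 peaks in 6p22.1 (exact 95% binomial interval 0.281 to 48.2%), 35.9% in 6p21.33 (21.2 to 52.8%) and 40.7% in 6p21.32 (22.4 to 61.2%). The 3 intervals overlap. All intervals are Clopper-Pearson and cover counting error over peaks only, since peaks of 1 list are not replicates.

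The region held 5.78 HA-BAZ2B peaks per Mb, against 1.79 per Mb over the rest of chromosome 6. The H3K4me3 list had 16.7 peaks per Mb in the region, against 4.97 over the rest of the chromosome. The 3 Mb just before the region were denser than it, with 27.7 HA-BAZ2B and 50.7 H3K4me3 peaks per Mb, and the 3 Mb after it had 2 and 10.3. The single WT peak of the region makes 0.222 per Mb, against 0.444 over the rest of the chromosome, and the contigs ran between 0.207 on mcf and 1.52 on qbl, so these WT counts show no common direction. These are densities of listed peaks, and read depth is unknown because the lists hold no read counts.

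The highest HA-BAZ2B peak of the region was at 30875841 to 30876331, 491 bp wide. Its fold enrichment was 11.2, and that of the H3K4me3 peak under it 11.02. The next, at 30539126 to 30539728, had 10.2 and sat on the highest H3K4me3 peak of the region (30538780 to 30539673, 12.97). The only HA-BAZ2B peak in 6p22.1 followed, at 30034543 to 30035434, with 10.2 on an H3K4me3 peak of 10.6. These 3 peaks had no WT peak. At the far end of the region, the peak at 33421532 to 33422765 had 9.94, and 3 more of the 15 highest lay just before it, between 33359499 and 33386055. In 6p21.33, peaks of 9.58 (31588466 to 31589117), 8.91 (31619607 to 31620793) and 8.02 (31762837 to 31763730) followed. Besides the peak that overlapped WT, described next, the others of the 15 highest lay between 7.10 and 7.996.

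The only WT peak of the region lay at 31509896 to 31510335, in 6p21.33, with a fold enrichment of 6.09, a width of 440 bp and a −log10 q of 5.56. It overlapped an HA-BAZ2B peak at 31509069 to 31510488 of 8.14 and 1420 bp. An H3K4me3 peak of 8.46 lay at the same place. The other 25 of 26 HA-BAZ2B peaks had no WT peak (96.2%, 80.4 to 99.9%). On the contigs 20 of 198 HA-BAZ2B peaks had one (10.1%), over the rest of chromosome 6 61 of 299 (20.4%), and over all assembled chromosomes 28.7%. The odds of carrying a WT peak were lower for HA-BAZ2B peaks of the region than for those of the rest of chromosome 6 (odds ratio 0.157, exact conditional 95% interval 0.00374 to 0.996). Against the other peaks of 6p the ratio was 0.158, with an interval up to 1.03. Against chromosome 6 without the 3 Mb before the region it was 0.166, up to 1.08. Against all other assembled peaks it was 0.0991 (0.00241 to 0.606). The ratios were thus alike in direction, not every interval excluded 1, and each rests on the single WT peak of the region.

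Every HA-BAZ2B peak of the region overlapped an H3K4me3 peak (26 of 26, interval 86.8 to 100%), as did 99.0% of those over all assembled chromosomes. On the contigs 194 of 198 did. The 4 contig peaks that did not were narrow, with a median width of 292 bp, and had fold enrichments between 4.77 and 4.91. One WT peak, on cox, had neither an HA-BAZ2B nor an H3K4me3 peak (fold enrichment 6.29, 305 bp). Where HA-BAZ2B and H3K4me3 peaks matched one to one, HA-BAZ2B peaks were narrower, with a median width ratio of 0.799 over 26 pairs in the region. That ratio was 0.725 over 178 pairs on the contigs and 0.886 over 281 pairs on the rest of chromosome 6. Summits of the pairs lay a median of 104 bp apart in the region, 122.5 bp on the contigs and 109 bp on the rest. As a description across pairs of 2 libraries, the Spearman correlation of fold enrichment was 0.70 in the region, 0.56 on the contigs and 0.72 on the rest.

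Seen from the H3K4me3 list, 26 of 75 peaks of the region carried HA-BAZ2B (34.7%, 24.04 to 46.5%), near the 39.5% over all assembled chromosomes. The share over the rest of chromosome 6 was 35.7% (32.5 to 39.1%). The odds ratio of the region against the rest of the chromosome was 0.954 (0.557 to 1.60), so a difference was not detectable with 75 peaks. Among the contigs 192 of 533 did (36.0%, 31.9 to 40.3%), with an odds ratio of 1.01 (0.801 to 1.28) against the rest of chromosome 6. The contigs are copies of the same place, so 1 site can be counted up to 7 times among the 533. Every interval pooled over contigs treats such peaks as separate and can be too narrow. WT peaks lay on 1 of 75 H3K4me3 peaks of the region (1.33%, 0.0338 to 7.21%), against 70 of 828 (8.45%, 6.65 to 10.6%) over the rest of chromosome 6 and 13.1% over all assembled chromosomes. That odds ratio was 0.146 (0.00361 to 0.871). It rests on a single WT peak. The interval took in 1 without the first and last 0.5 Mb (0.184, up to 1.10). It also did so against chromosome 6 without the 3 Mb before the region (0.177, up to 1.07). It stayed below 1 against the other peaks of 6p (0.129, up to 0.783) and against all other assembled peaks (0.0893, up to 0.514).

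On the contigs 21 of 533 H3K4me3 peaks carried WT (3.94%, 2.46 to 5.96%), with an odds ratio of 0.444 (0.256 to 0.743) against the rest of chromosome 6. Both intervals pool copies of the same place and can be too narrow. The contigs reach farther out than the chromosome 6 window. On the 5 contigs with an OR12D2 start, 8 of 12 WT peaks and 43 of 147 HA-BAZ2B peaks lay farther before OR12D2 than the start of the region does on chromosome 6 (364.4 kb). On these 5 contigs WT lay on 11 of 401 H3K4me3 peaks (2.74%, 1.38 to 4.86%), and without that outer stretch on 3 of 316 (0.949%), both choices made after seeing the data. The apd and qbl contigs held the other 10 of the 21. On mann, mcf and ssto a WT peak lay at 454.9 kb before the OR12D2 start, and on chromosome 6 the nearest WT summit to that start was 500.5 kb away.

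The lists were filtered for recurrence, and whether that filter moved the WT count of the region was not tested. The labels say that the lists hold peaks seen in 2 or more replicates, and the peaks carry running numbers with gaps, read here as places in the unfiltered list. HA-BAZ2B names spanned 65 numbers across the region, of which 26 were kept, at most 40%, against 37.9% over the rest of chromosome 6. H3K4me3 names spanned 96, of which 75 were kept, against 81.9% over the rest. The WT neighbours on either side lay at 28.9 and 37.2 Mb, with 39 numbers between them. That 1 of these was kept follows from bounding the stretch by the nearest kept peaks, and the stretch reaches past the region. It is therefore no rate to set beside the 74 of 434 (at most 17.1%) over the rest of chromosome 6. How many of the dropped WT peaks lay in the region cannot be read from the names.

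H3K4me3 peaks with HA-BAZ2B alone were stronger and wider than those with neither anti-HA list. The 25 with HA-BAZ2B alone had a median fold enrichment of 9.15, width of 1093 bp and −log10 q of 28.9, and the 49 with neither had 7.26, 776 bp and 13.9. On the rest of chromosome 6 the 237 with HA-BAZ2B alone had a median fold enrichment of 8.89 and the 521 with neither 8.996. Their widths were 1229 and 991 bp, and their −log10 q 40.5 and 31.0. On the contigs the 173 with HA-BAZ2B alone had a median fold enrichment of 8.62 and the 339 with neither 6.88. In the region and on the contigs fold enrichment thus separated these classes more than on the rest of chromosome 6, a comparison of medians with no test.

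Of the 75 H3K4me3 peaks of the region 49 had no anti-HA peak, among them some of its more significant ones. The 5 named here by −log10 q all lie below 42.04, the median of all assembled H3K4me3 peaks. Among peaks with a −log10 q between 22.1 and 42.04, HA-BAZ2B lay on 60% of those of the region. It lay on 27.7% of all other assembled peaks in that range. The strongest by −log10 q was at 29910156 to 29911073 in 6p22.1, with 40.4 and a fold enrichment of 12.3. It was followed by 30457016 to 30458202 (−log10 q 30.7), 31670551 to 31671284 (29.2), the peak at the DXO start (28.4) and 32861931 to 32863015 (28.3). Over all H3K4me3 peaks of the region 34.7% carried HA-BAZ2B, and over all assembled chromosomes 39.5%. Of the 5 highest H3K4me3 peaks of the region by fold enrichment, 2 carried HA-BAZ2B and 3 did not. Of the 5 widest, between 1555 and 1793 bp, 4 carried it. The exception, at 31702672 to 31704312, had a low fold enrichment of 4.07.

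The deposited significance of H3K4me3 peaks was lower in the region than elsewhere. The median −log10 q was 21.1 in the region and 17.2 on the contigs, against 34.5 over the rest of chromosome 6 and 42.2 over all other assembled peaks. The order-statistic interval of the median, 14.6 to 25.3, lay below that of the rest of chromosome 6, 32.6 to 36.8. Median fold enrichment was 7.85 in the region and 7.50 on the contigs, against 8.96 on the rest of the chromosome. HA-BAZ2B peaks did likewise in −log10 q, with 11.6 in the region and 9.95 on the contigs, against 19.7 on the rest. Their median fold enrichment was 7.29 in the region and 6.70 on the contigs, against 7.39 on the rest, and here the interval of the region (6.31 to 8.02) contained the value of the rest.

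The low significance was not limited to the region. From 1 to 3 Mb before it the median −log10 q of H3K4me3 was 22.1, in the 0.5 Mb just before it 13.0, and between 28 and 28.5 Mb it was 39.6. In the 1 Mb after the region it was 40.04. Whether reads shared between copies moved these values was not tested.

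**Figure D2:**
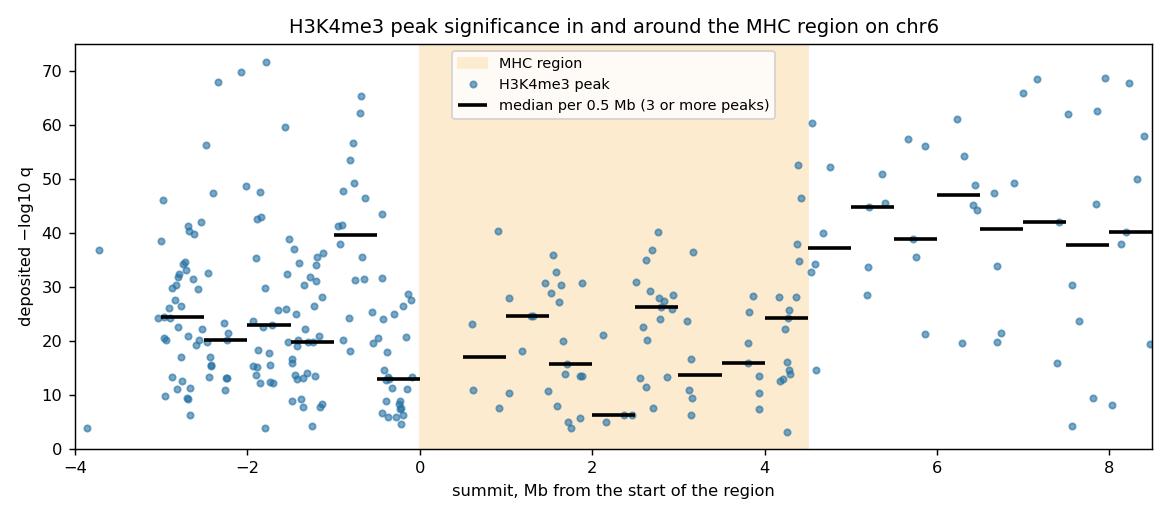
Deposited −log10 q (vertical) of H3K4me3 peaks on chromosome 6 against the distance of the summit from the start of the region in Mb. Points are peaks, black lines are medians of 0.5 Mb windows with 3 or more peaks, and the shaded span is the MHC region. Medians inside the region lie below those of the windows after it, and so do most of those in the 3 Mb before it.

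H3K4me3 peaks of like significance were then compared, in 4 bins of −log10 q that hold equal numbers of all assembled peaks, with borders at 22.1, 42.04 and 57.6. The region had 38, 35, 2 and 0 peaks in the bins, lowest first. Its second bin thus holds the upper part of its own range, while among all assembled peaks that bin lies below the median. Peaks of the same bin therefore do not hold the same rank within each set. Over all bins together the shares with HA-BAZ2B were 34.7% in the region and 35.7% on the rest of chromosome 6. In the lowest bin HA-BAZ2B lay on 3 of 38 peaks of the region (7.89%, 1.66 to 21.4%) and on 19.7% of contig peaks (15.6 to 24.4%), against 20.1% on the rest of chromosome 6 and 12.1% (11.1 to 13.1%) over all other assembled peaks. In the second bin it lay on 21 of 35 peaks of the region (60%, 42.1 to 76.1%) and on 63.7% of contig peaks (56.4 to 70.5%). The rest of chromosome 6 had 39.7% there (33.9 to 45.7%) and all other assembled peaks 27.7% (26.3 to 29.1%). WT lay on 1 of these 35 peaks of the region and on 7.58% of those on the rest of chromosome 6.

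**Figure D3:**
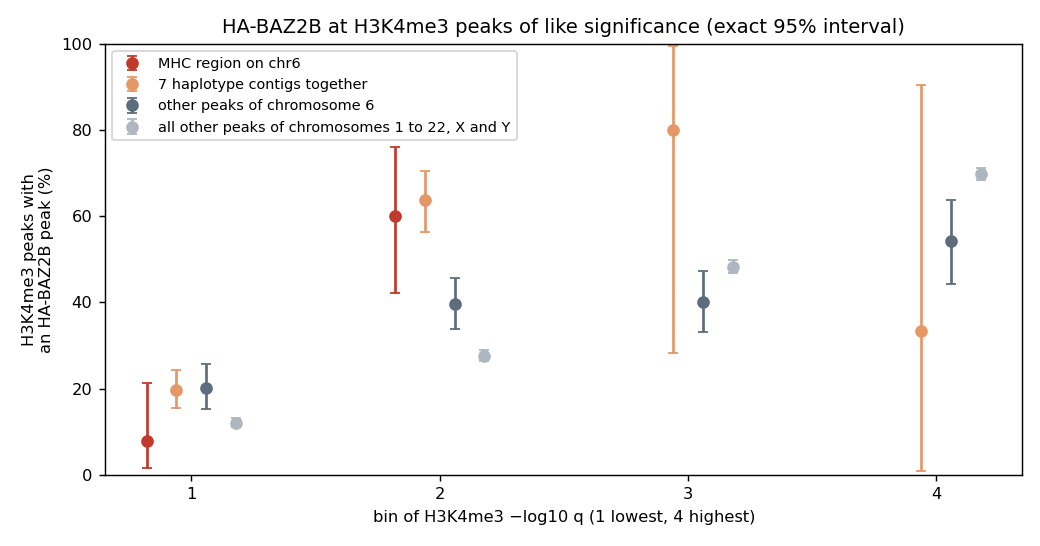
Percentage of H3K4me3 peaks that carried HA-BAZ2B (vertical) in each bin of H3K4me3 −log10 q (horizontal), for the MHC region, the contigs, the rest of chromosome 6 and all other assembled peaks. Bars are exact 95% intervals, and groups with fewer than 3 peaks are not drawn. The contig bars pool copies of the same place and can be too narrow. In the second bin the region (60%) and the contigs (63.7%) stand above the rest of chromosome 6 (39.7%). That bin holds the upper part of the region's own range and lies below the median of all assembled peaks.

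With 4 such bins of fold enrichment instead, a choice made after seeing the data, the shares of the region were 20%, 33.3%, 56.3% and 50%, lowest bin first. The contigs had 24.2%, 42.4%, 44.8% and 53.2%. The rest of chromosome 6 had 36.1%, 38.4%, 34.9% and 33.7%, and all other assembled peaks had 33.7%, 42.1%, 41.9% and 40.5%. The share was lowest in the lowest bin in the region, on the contigs and over all other assembled peaks, and not on the rest of chromosome 6. In the region the second bin did not stand above that of the rest of the chromosome. The intervals of the region were wide, such as 14.6 to 57.0% in the second bin.

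Every contig had H3K4me3 peaks with HA-BAZ2B. The shares ran between 31.1% on mann and 45.5% on apd, with overlapping intervals. Peak numbers differed more. The apd contig had 21 HA-BAZ2B, 3 WT and 44 H3K4me3 peaks, and cox had 35, 2 and 106. The dbb contig had 26, 2 and 75, and mann had 24, 3 and 74. The mcf contig had 31, 1 and 71, qbl 30, 7 and 88, and ssto 31, 4 and 75. H3K4me3 peaks per Mb were 9.52 on apd and 22.1 on cox, against 16.7 on the chromosome 6 copy. These whole-contig values do not cover the same stretch as the chromosome 6 window. On cox 30 of 106 H3K4me3 peaks lay farther before OR12D2 than the start of the region does on chromosome 6. How much of each contig's sequence is unresolved was not analysed here.

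**Figure D4:**
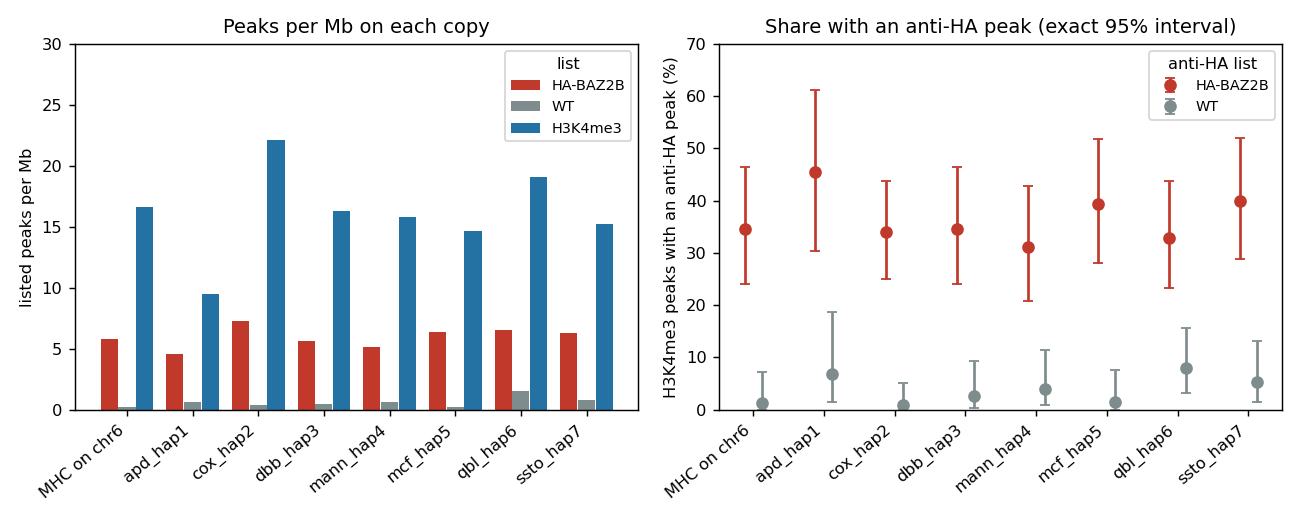
Left, listed peaks per Mb on the chromosome 6 copy and the 7 contigs for the HA-BAZ2B, WT and H3K4me3 lists. Whole contigs are shown, which reach farther out than the chromosome 6 window. Right, percentage of H3K4me3 peaks of each copy with an HA-BAZ2B or a WT peak, with exact 95% intervals. HA-BAZ2B shares lie between 31.1 and 45.5% on every copy and WT shares at 7.95% or below.

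The highest HA-BAZ2B peaks of the contigs had fold enrichments between 10.6 on mann and 12.6 on apd, and each lay on an H3K4me3 peak without a WT peak. The highest H3K4me3 peaks ran between 12.8 on qbl and 16.9 on cox, and those on dbb, mann and mcf carried HA-BAZ2B (8.33, 10.5 and 10.6). The highest WT peak was on qbl at 3406336 to 3407161 of that contig, with 10.2, and the HA-BAZ2B peak there had 4.41. On mann the highest WT peak (3488040 to 3488914) had 8.60 beside an HA-BAZ2B peak of 4.67. On ssto (3493048 to 3493781) the WT peak had 7.71 beside an HA-BAZ2B peak that also had 4.67. Fold enrichment is not scaled between lists, and these values are given side by side only.

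Copies were then lined up by distance from the DXO start, on chromosome 6 and the 5 contigs that carry it, from 600 kb before it to just past it. Summits no more than 2 kb from the next formed 1 site, which gave 22 sites with a median spread of 0.749 kb between copies. HA-BAZ2B was listed at 9 sites, WT at 2 and H3K4me3 at all 22, of which 10 had H3K4me3 on all 6 copies. The copies share the same libraries and possibly the same reads, so they are not replicates of one another.

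HA-BAZ2B was listed on several copies at some sites and on none at others. Counting each site on each copy, H3K4me3 was listed at 101 places and HA-BAZ2B at 37. Over all assembled chromosomes 39.5% of H3K4me3 peaks carried HA-BAZ2B. Whether shared reads placed peaks on several copies was not tested. At 7 sites HA-BAZ2B was listed on 4 or more copies, and at 13 sites on none. Of those 13, 8 had H3K4me3 on 4 or more copies and 4 had it on all 6. The site 430.4 kb before DXO was the only one with HA-BAZ2B on all 6 copies (fold enrichment 6.34 to 9.85), and it also had WT on 2 (4.96 and 6.09). It is the site of the single WT peak of the region. The site 351.5 kb before DXO had HA-BAZ2B on 5 copies (4.53 to 9.58), and so did that at 176.7 kb (7.53 to 9.21), both with no WT peak on any copy.

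One site carried HA-BAZ2B on contigs and not on chromosome 6. It lay 269.3 kb before DXO, with HA-BAZ2B on cox, mcf and qbl (8.96 to 10.9) and H3K4me3 on all 6 copies (11.4 to 12.8). On the chromosome 6 copy its H3K4me3 peak, at 31670551 to 31671284, was among the 5 most significant without any anti-HA peak. A reading of chromosome 6 alone would list this site without HA-BAZ2B. Yet the chromosome 6 copy had HA-BAZ2B at 8 of the 22 sites, more than any of the 5 contigs (4 on ssto to 7 on dbb and mcf). Among sites without HA-BAZ2B on any copy, the DXO start and the site 13.4 kb before it had H3K4me3 on all 6 copies, with fold enrichments of 8.46 to 10.4 at the site before it. Past DXO the first H3K4me3 summit lay 155.8 kb away on chromosome 6 and on mcf, 149.4 kb on dbb, 149.5 kb on qbl, 116.7 kb on cox and 173.4 kb on ssto.

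**Figure D5:**
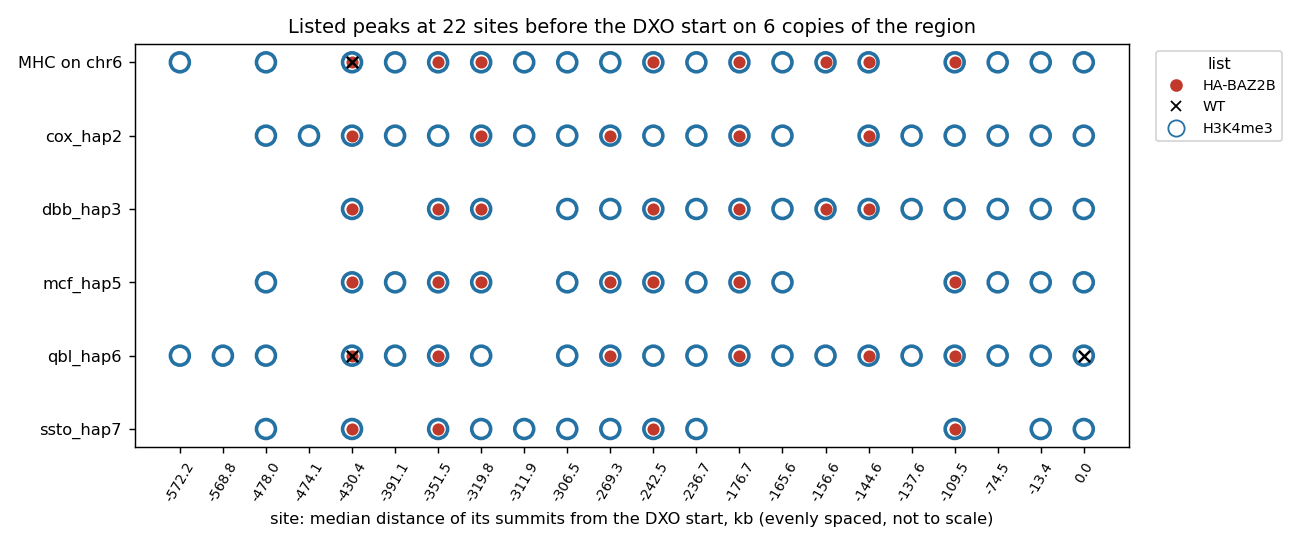
Listed peaks at 22 sites (horizontal, labelled by median distance of the summits from the DXO start in kb, evenly spaced) on 6 copies of the region (rows). Filled circles are HA-BAZ2B, crosses WT and open circles H3K4me3. HA-BAZ2B appears on all 6 copies at 1 site, on 4 or more at 7 and on none at 13, and the DXO start at the right has H3K4me3 on all 6 rows.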

How the data were processed

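The members and the gene and peak lists were chosen with earlier results of these data known. Per the labels, the authors kept peaks present in at least 2 of 3 replicates, taken from the largest replicate list; peak names show HA-BAZ2B replicate 3, WT replicate 2 and H3K4me3 replicate 1. Per the submitters' processing notes, Bowtie2 2.4.5, MACS2 2.1.4, SAMtools 1.15.1, Picard and bedtools were used, on hg19; The sources used here name neither the MACS2 settings nor any control. The deposited fold enrichment is a ratio over the caller's own background, the deposited −log10 q is the authors' significance, and the deposited score is a rescaled display value. Lists are not scaled to each other. Groups follow the sample titles, although the antibody numbers of the H3K4me3 replicates are not all the same.

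From these files, summits were taken as start plus offset, and an overlap needed 1 bp. Shares have exact 95% binomial intervals, and odds ratios have exact conditional ones, with no p-values; a simulated list was used to check the code. Alternatives were an overlap of 50%, a summit inside the other peak, a −log10 q of at least 5, no first and last 0.5 Mb, and other sets to compare with. Peaks were named by rule: the 15 highest HA-BAZ2B peaks, every WT peak, every anti-HA peak without H3K4me3, the 5 widest and 5 highest H3K4me3 peaks, the 5 most significant without an anti-HA peak, and the highest per contig. Other peaks named were chosen after their values were seen. Bands came from circlize 0.4.16 and hg19 contig lengths and 2 gene starts from the UCSC knownGene sample of GenomicFeatures 1.54.1 (R 4.3.3); the rest ran in Python 3.11.15 with pandas 2.3.3, numpy 2.4.6, scipy 1.17.1 and matplotlib 3.10.9.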

Additional observations from a re-analysis of the deposited data

How the results depend on the processing

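Of 53 alternative values of 17 results, 44 kept their direction and side. For H3K4me3 peaks of the region with HA-BAZ2B, the odds ratio against the rest of chromosome 6 was 0.954, and it was 1.04 with a 50% overlap (0.605 to 1.76) and 1.15 against chromosome 6 without the 3 Mb before the region (0.669 to 1.95). All of these intervals contain 1. For WT, the ratio of 0.146 was 0.184 without the first and last 0.5 Mb and 0.177 against chromosome 6 without the 3 Mb before the region, and both intervals contain 1. Under the other alternatives the interval stayed below 1, with upper ends between 0.514 and 0.984. With a 50% overlap the share of H3K4me3 peaks of the region with WT was 0%, that of HA-BAZ2B peaks without WT was 100%, and that of contig H3K4me3 peaks with HA-BAZ2B was 27.4%. With a summit inside the other peak, HA-BAZ2B peaks without WT were also 100%. On the 5 contigs trimmed at the distance of the region's start from OR12D2, an alternative chosen after seeing the data, contig H3K4me3 peaks with WT were 0.949%, against 2.74% on the same 5 contigs untrimmed and 3.94% on all 7. The causes were not tested. No paired analysis was possible because the lists hold no value per replicate, and for the same reason no replicate could be left out. Depth is unknown, and 1 WT peak is all that the WT comparison in the region rests on.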
